A study of Mus with 96 samples.

Results

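The 43 genes described here drive the cell division cycle: 22 genes of mitosis and the G2 phase, 14 genes of DNA replication, 4 regulators of entry into S phase (the G1/S step), and 3 regulators of the cell cycle that are tied to the circadian clock. They were chosen by name, and all 43 had at least 100 counts summed over the 96 libraries, as did 15548 of the 55487 genes in the table. No measured value other than that minimum entered the rule that chose them, but the list was made with earlier results of these data known. A dividing cell copies its DNA in S phase, for which it loads the MCM helicase on origins and makes nucleotides, and then passes through G2 into mitosis, where cyclin B and its kinase CDK1 start the division of the chromosomes. Transcripts of replication genes therefore come before those of mitotic genes in a cycling cell. Hepatocytes of an adult liver divide rarely, re-enter the cycle after injury, and carry a circadian clock, in which BMAL1 (gene symbol Arntl) is an activator, and which is known to reach the cell cycle through the mitotic brake Wee1 and the CDK inhibitor Cdkn1a (p21).

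Livers were taken from C57BL/6J mice in 4 groups of 24, which joined the genotypes Hep-Bmal1WT and Hep-Bmal1KO to a chow diet or to cdHFD. This choline-deficient diet, with 60% of fat and 2% of cholesterol, was fed for 2 weeks and injures the liver. The mice were 8–10 weeks old when housed for the experiment, and livers were taken after acclimation and the diet period. Hep-Bmal1KO mice carried floxed Bmal1 alleles and Cre under the albumin promoter, so that the deletion was limited to hepatocytes, while Hep-Bmal1WT littermates carried the floxed alleles without Cre. Mice of both sexes were kept in 12 h of light and 12 h of dark, and 4 mice per group were sampled every 4 h at zeitgeber times (ZT, hours after lights on) 2, 6, 10, 14, 18, and 22. Whole liver RNA was read by BRB-seq, which gives each sample a barcode and counts tags from the 3′ end of each mRNA.

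The libraries held 1861740 to 9718615 counts on genes, and levels are given as CPM, a gene's count relative to the library's total after TMM scaling. At this depth the mitosis genes were near the limit of detection on chow, where 20 of the 22 had no count in at least 1 of 48 libraries, against 1 of 22 on cdHFD. The genes that define hepatocytes were abundant in every library. Arntl did not check the genotype by its level, since the tag that is counted may lie outside the deleted part, but its rhythm did differ, with an amplitude of 1.44 ± 0.13 (SE) in Hep-Bmal1WT and 0.38 ± 0.16 in Hep-Bmal1KO mice on chow on the log2 scale. By 10 clock genes, and again by 20 other genes, 7 of the 96 libraries lay nearer to the other genotype at their diet and ZT than to the genotype on their label (2 in each group except Hep-Bmal1KO cdHFD, which had 1). No library was moved, group names are those of the labels, and results that change without these 7 libraries are given both ways.

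Mitosis genes rose with the diet in both genotypes, and by their median they rose more than any other class. Mki67, the proliferation marker that coats mitotic chromosomes (chr7:135689784-135716450, GRCm38), had a lowest, median, and highest level of 0, 0.835, and 7.89 CPM in Hep-Bmal1WT mice on chow and 3.12, 9.04, and 14.8 CPM on cdHFD. In Hep-Bmal1KO mice it had 0, 0.898, and 3.26 CPM on chow and 1.5, 7.79, and 19.2 CPM on cdHFD. The highest chow library lay above the lowest cdHFD library in both genotypes, so the groups overlapped. On the log2 scale the difference was 2.80 ± 0.27 in Hep-Bmal1WT (SE, n = 24 per diet, edgeR adjusted p = 5.52e-13) and 3.05 ± 0.21 in Hep-Bmal1KO mice (edgeR adjusted p = 9.53e-18). Top2a, the topoisomerase that untangles sister chromatids (chr11:98992947-99024199), rose in Hep-Bmal1WT mice from a median of 1.5 CPM to 12.5 CPM, by 2.81 ± 0.19 (edgeR adjusted p = 4.24e-18). With all mice this was the largest estimate of the 43 genes there, but it did not differ from that of Mki67 beyond the errors.

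**Figure D1:**
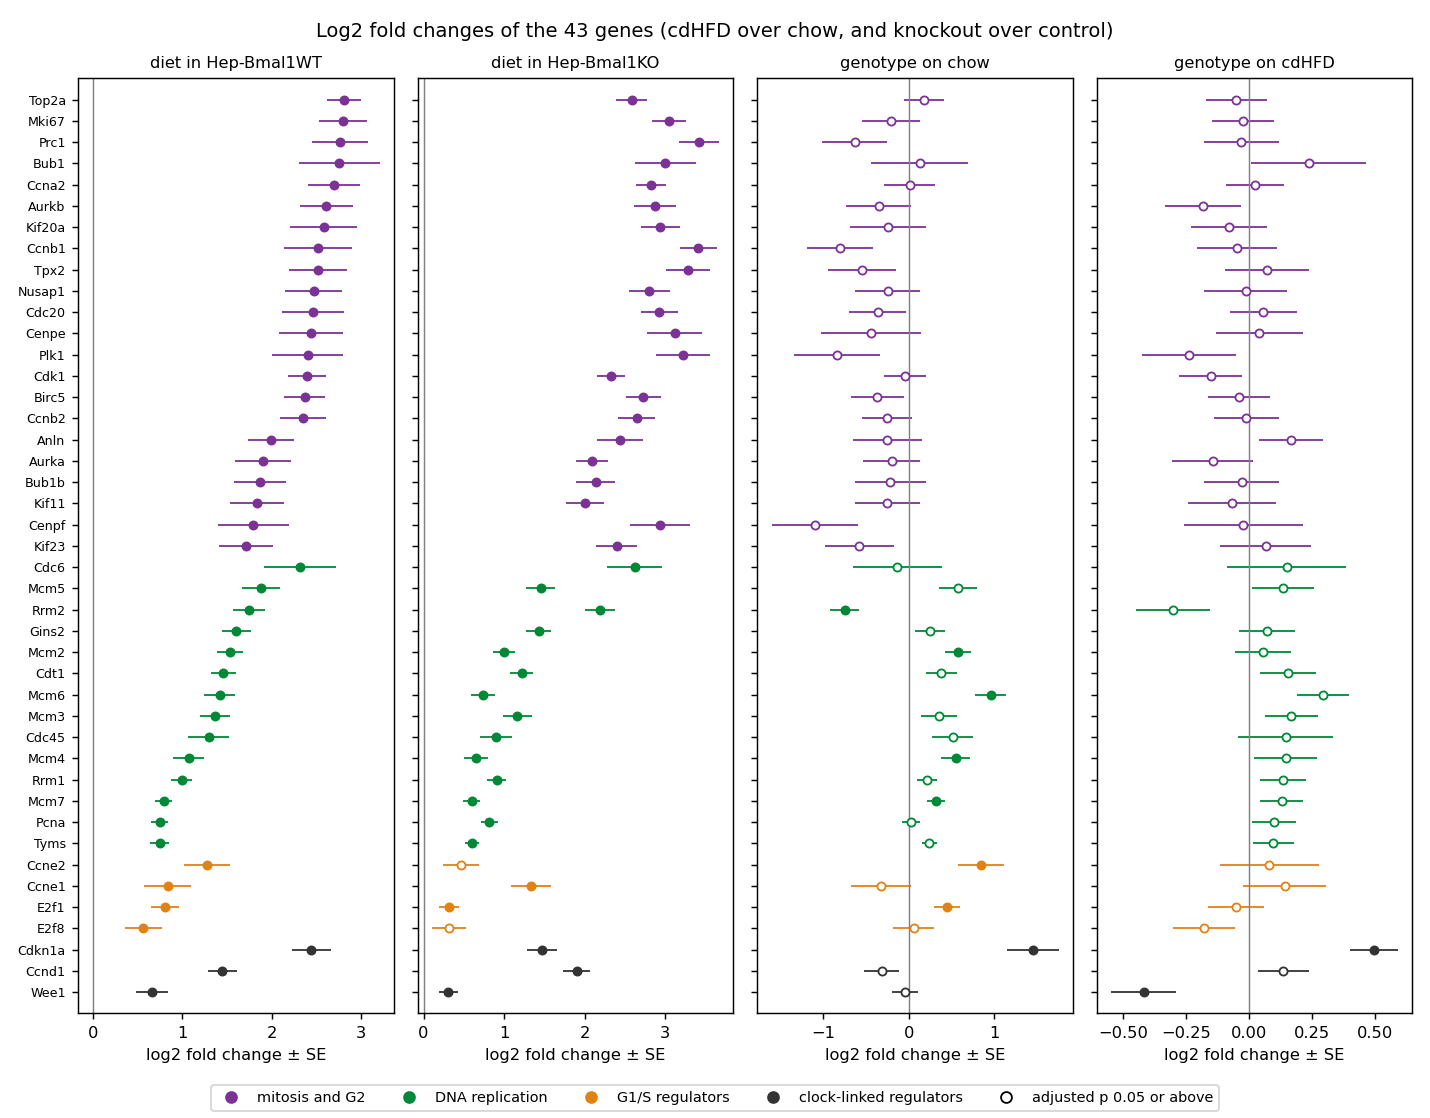
Log2 fold change ± SE (x axis) of each of the 43 genes (y axis, coloured by class) for cdHFD against chow in each genotype, and for Hep-Bmal1KO against Hep-Bmal1WT on each diet, with filled points where the edgeR adjusted p was under 0.05. The x axes differ between panels: diet estimates of mitosis genes reached 3.42, while every genotype estimate on cdHFD lay between -0.42 and 0.50.

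In Hep-Bmal1WT mice 43 of 43 genes were higher on cdHFD, where 28.7% of all genes tested were called higher and 27% lower. In Hep-Bmal1KO mice 41 of 43 were higher, against 32.4% of all genes higher and 29.6% lower. The median log2 difference over the 22 mitosis genes was 2.45 in Hep-Bmal1WT, from 1.71 for the midzone kinesin Kif23 to 2.81 for Top2a, and 2.85 in Hep-Bmal1KO mice, up to 3.42 for the spindle bundling protein Prc1. Over the 14 replication genes the median was 1.39 and 0.95, and over all genes kept it was 0.01 and 0.02. The cyclin B gene Ccnb1 rose by a log2 difference of 2.52 ± 0.38 and 3.41 ± 0.23, and its partner kinase Cdk1 by 2.40 ± 0.21 and 2.33 ± 0.18. Cdk1 had no overlap between diets in Hep-Bmal1KO mice, with at most 5.87 CPM on chow and at least 7.20 CPM on cdHFD. It was the only such gene of the 43 there, where 3.19% of all genes were without overlap in this direction, and in Hep-Bmal1WT mice none of the 43 was, against 2.2%.

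A single mouse weighed on the chow baseline. The summed level of the 22 mitosis genes was 156 CPM in male replicate 1 of Hep-Bmal1WT chow at ZT6, and 22.6–33 CPM in the other 3 mice of that time. Without this mouse, an alternative chosen after the data were seen, all 43 genes were still called higher on cdHFD, and the differences of Ccnb1 and Mki67 in Hep-Bmal1WT mice became 3.09 ± 0.28 and 3.22 ± 0.20. Top2a was at 2.97 at most with this mouse or a replicate number left out, so it was no longer first.

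Among the replication genes, the rise was largest for Cdc6, which loads the MCM helicase, at a log2 difference of 2.32 ± 0.40 in Hep-Bmal1WT and 2.62 ± 0.34 in Hep-Bmal1KO mice, although its median on chow was only 0.254 and 0.205 CPM. It was smallest in Hep-Bmal1WT mice for Tyms, the enzyme that makes thymidylate (0.75 ± 0.11), and for Pcna, the sliding clamp of the polymerase (0.75 ± 0.10). The 6 subunits of the MCM helicase rose by between 0.79 (Mcm7) and 1.88 (Mcm5) in Hep-Bmal1WT and by between 0.60 (Mcm7) and 1.45 (Mcm5) in Hep-Bmal1KO mice. Rrm2 (chr12:24708254-24714146), the regulated subunit of ribonucleotide reductase, rose by 1.75 ± 0.18 and 2.19 ± 0.19, and its large subunit Rrm1 by 1.0 ± 0.12 and 0.91 ± 0.12. The licensing factor Cdt1 and the helicase cofactors Gins2 and Cdc45 also rose in both genotypes.

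The G1/S regulators moved least. Cyclin E gene Ccne2 rose by 1.28 ± 0.26 on the log2 scale in Hep-Bmal1WT mice, and in Hep-Bmal1KO mice its difference of 0.47 ± 0.22 was not called (edgeR adjusted p = 0.0655). The repressor E2f8 rose in Hep-Bmal1WT mice (0.57 ± 0.21), and its difference of 0.32 ± 0.21 was not called in Hep-Bmal1KO mice (edgeR adjusted p = 0.189). E2f1, the activator of S phase genes, and the other cyclin E gene, Ccne1, rose in both genotypes. Of the clock-linked genes, Cdkn1a rose by 2.44 ± 0.22 in Hep-Bmal1WT and 1.47 ± 0.18 in Hep-Bmal1KO mice, Ccnd1, the cyclin D gene that carries growth signals into G1, by 1.45 ± 0.17 and 1.90 ± 0.17, and Wee1 by 0.66 ± 0.18 and 0.31 ± 0.12.

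The makeup of the liver RNA moved with the diet as well. In Hep-Bmal1WT mice 5 of 5 hepatocyte markers were lower on cdHFD (median log2 difference -1.08), and their summed level went from 91593–207674 CPM to 53622–91486 CPM. All 10 macrophage markers were higher (median 2.11, summed 229–615 CPM on chow and 1066–2710 CPM on cdHFD), as were 8 of 8 stellate cell and fibroblast markers (median 1.63) and 5 of 5 neutrophil markers (median 2.62). Of T cell markers 4 of 6 were higher, of B cell markers 0 of 4, of endothelial markers 3 of 5 with 1 lower, of cholangiocyte markers 2 of 5, and 3 of 3 erythroid markers were lower. The part of these cells in the rise of the 43 genes was not tested, and in RNA from whole liver more cells of a type cannot be told apart from more RNA per cell.

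Other genes of the pathway, from a list that left out the 43, followed the same direction for the most part. Of 42 other mitosis genes kept, 38 were higher and 1 lower on cdHFD in Hep-Bmal1WT mice, among them Gtse1 (2.75 ± 0.24 on the log2 scale) and the checkpoint gene Mad2l1 (1.58 ± 0.15), while Pttg1, the securin gene, fell by 0.60. Of 46 other replication genes 34 were higher and 2 lower. The maintenance methylation factor Uhrf1 rose by 2.88 ± 0.25 and the ligase Lig1 by 1.44 ± 0.16, while Mcm10, which starts the helicase, fell by 2.04 and the thymidine kinase Tk1 fell by 0.79. Of 25 other cyclins, CDKs, and their inhibitors 13 were higher and 5 lower, with Rbl1, a relative of the retinoblastoma gene, at 1.39 ± 0.23. Of 20 targets of p53 17 were higher and 1 lower, and those of smallest p were Phlda3 at 2.77 ± 0.18 and Ccng1 at 0.78 ± 0.06, beside a median of 0.94 over the list.

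On cdHFD the genes followed an order over the day in Hep-Bmal1WT mice: replication genes were highest around ZT10 and mitosis genes around ZT18. The summed level of the 14 replication genes was 132–159 CPM in the 4 mice at ZT2, 186–385 CPM at ZT10, and 120–157 CPM at ZT22. The summed level of the 22 mitosis genes was 54–81.5 CPM at ZT6, 119–152 CPM at ZT10, and 219–253 CPM at ZT18. No mouse at ZT18 came down to the level of any mouse at ZT6 for the mitosis genes, and the same held for replication genes at ZT10 against ZT22. These sums are led by the most abundant genes of each class and are given without a test.

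**Figure D2:**
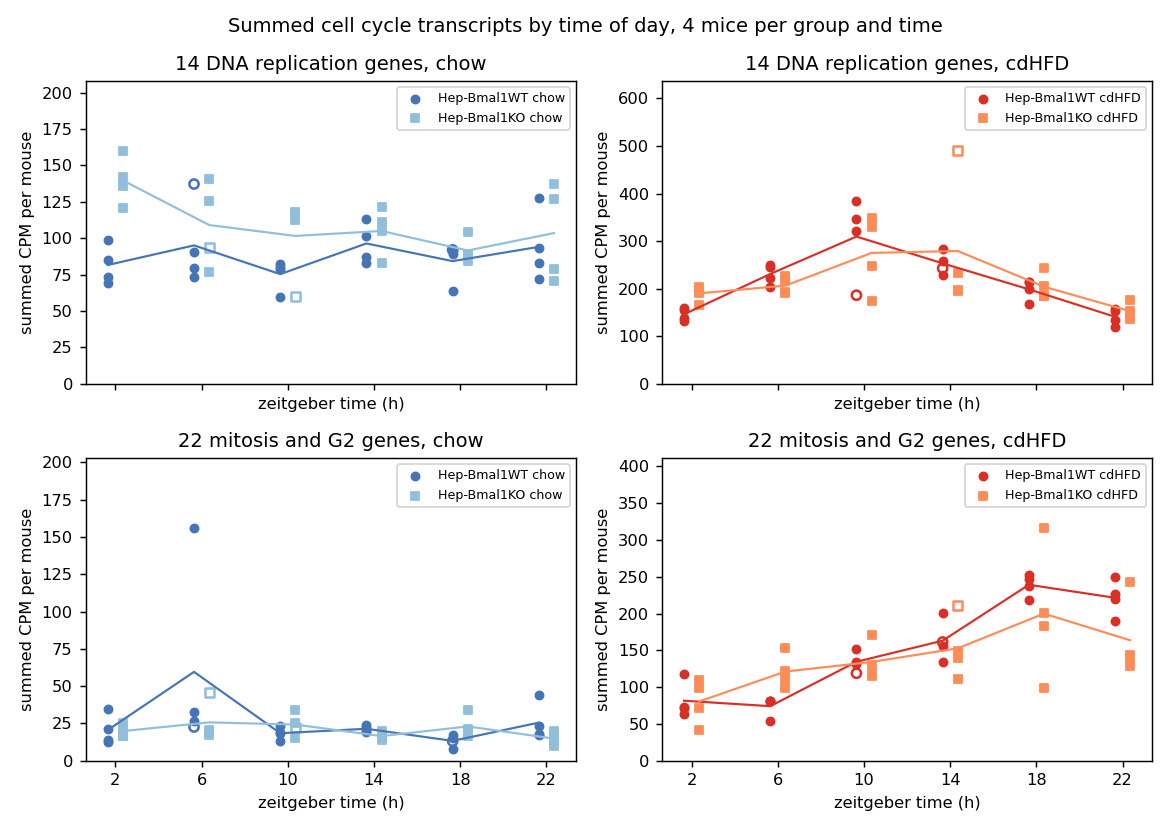
Summed CPM per mouse (y axis) of the 14 replication genes (top) and 22 mitosis and G2 genes (bottom) against zeitgeber time (x axis, h) on chow (left) and cdHFD (right), with a point per mouse, lines through group means, and open symbols for the discordant libraries. On cdHFD replication genes stood at 186–385 CPM at ZT10 and mitosis genes at 219–253 CPM at ZT18 in Hep-Bmal1WT mice, while on chow 1 mouse at ZT6 stood at 156 CPM for mitosis genes.

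A gene was called rhythmic where edgeR's test of a cosine and sine of 24 h had an adjusted p under 0.05, and the amplitude (the rise from the mean to the peak) and peak time were fitted to log2 values after a variance-stabilizing transformation, which shrinks changes of genes with few counts. In Hep-Bmal1WT mice on cdHFD 41 of 43 genes were rhythmic, against 14.5% of all genes tested. Wee1 (edgeR adjusted p = 0.0920) and E2f8 (edgeR adjusted p = 0.136) were not called. Without the discordant libraries 42 genes were called, with E2f8 the exception, and males alone gave 33 and females alone 16, from fewer mice in each fit. In females alone 385 of all genes were called. The mean peak of the 14 replication genes was ZT 10 and that of the 22 mitosis genes ZT 17.5, and every replication gene peaked before every mitosis gene, with Tyms last of the one class at 15.1 ± 0.47 h (SE) and the checkpoint kinase Bub1 first of the other at 15.4 ± 0.87 h. These 2 neighbours did not differ beyond their errors.

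Within the replication class the earliest peaks were those of the licensing factors Cdt1 at 7.46 ± 0.78 h and Cdc6 at 7.54 ± 0.77 h, followed by Mcm3 at 8.17 ± 0.63 h, Mcm7 at 8.28 ± 1.06 h, Mcm4 at 8.46 ± 0.61 h, Cdc45 at 8.66 ± 0.87 h, and Mcm2 at 8.96 ± 0.60 h. Mcm6 (chr1:128331575-128359705) peaked at 9.81 ± 0.39 h, Pcna at 10.2 ± 0.68 h, Mcm5 at 10.5 ± 0.55 h, Rrm1 at 11.5 ± 0.74 h, Gins2 at 13.4 ± 0.89 h, and Rrm2 at 14.3 ± 0.37 h. Among the first 7 the neighbours lay closer than their errors, while Rrm2 and Tyms, which supply nucleotides, came last. The G1/S genes Ccne1 (8.68 ± 0.62 h), Ccne2 (10.8 ± 0.63 h), and E2f1 (11.4 ± 0.71 h) peaked among the replication genes.

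Of the mitosis genes Bub1, Top2a (15.6 ± 0.71 h), and Mki67 (16 ± 0.72 h) peaked first, with Aurkb, the kinase of the chromosomal passenger complex, at 16.2 ± 0.58 h and the spindle kinesin Kif11 at 16.3 ± 0.83 h. Between 17.1 and 17.8 h lay Cdk1, the contractile ring gene Anln, the spindle pole kinase Aurka, Prc1, Kif23, the kinetochore genes Cenpf and Cenpe, the passenger subunit Birc5, the microtubule binder Nusap1, and the polo kinase Plk1. Later came the cyclin A gene Ccna2 (18.1 ± 0.37 h), the Aurora A activator Tpx2 (18.1 ± 0.71 h), the cytokinesis kinesin Kif20a (18.6 ± 0.48 h), and the checkpoint kinase Bub1b (18.9 ± 0.90 h). The cyclin B genes Ccnb1 (19.2 ± 0.51 h) and Ccnb2 (19.2 ± 0.57 h) were next to last, and Cdc20 (chr4:118432901-118437343), which activates the ligase that destroys cyclin B, was last at 19.4 ± 0.43 h. Neighbours in this order did not differ beyond their errors.

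Cdc20 and Rrm2 show the size of the swing. In Hep-Bmal1WT mice on cdHFD Cdc20 was at 3.14, 4.73, 5.75, and 7.25 CPM at ZT6 and at 21.1, 24.9, 26.1, and 28.4 CPM at ZT22, so every mouse at ZT22 was above every mouse at ZT6. Its amplitude was 0.92 ± 0.10 on the log2 scale (edgeR adjusted p = 2.77e-07). Rrm2 was at 10.5, 12.6, 12.8, and 13.6 CPM at ZT2 and at 61.6, 67.2, 74.1, and 79.3 CPM at ZT14, with an amplitude of 1.05 ± 0.10 (edgeR adjusted p = 1.97e-08), the largest of the 43. Mcm6 was at 9.18–16 CPM at ZT22 and at 40.1–66.5 CPM at ZT10, with an amplitude of 0.87 ± 0.09.

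**Figure D3:**
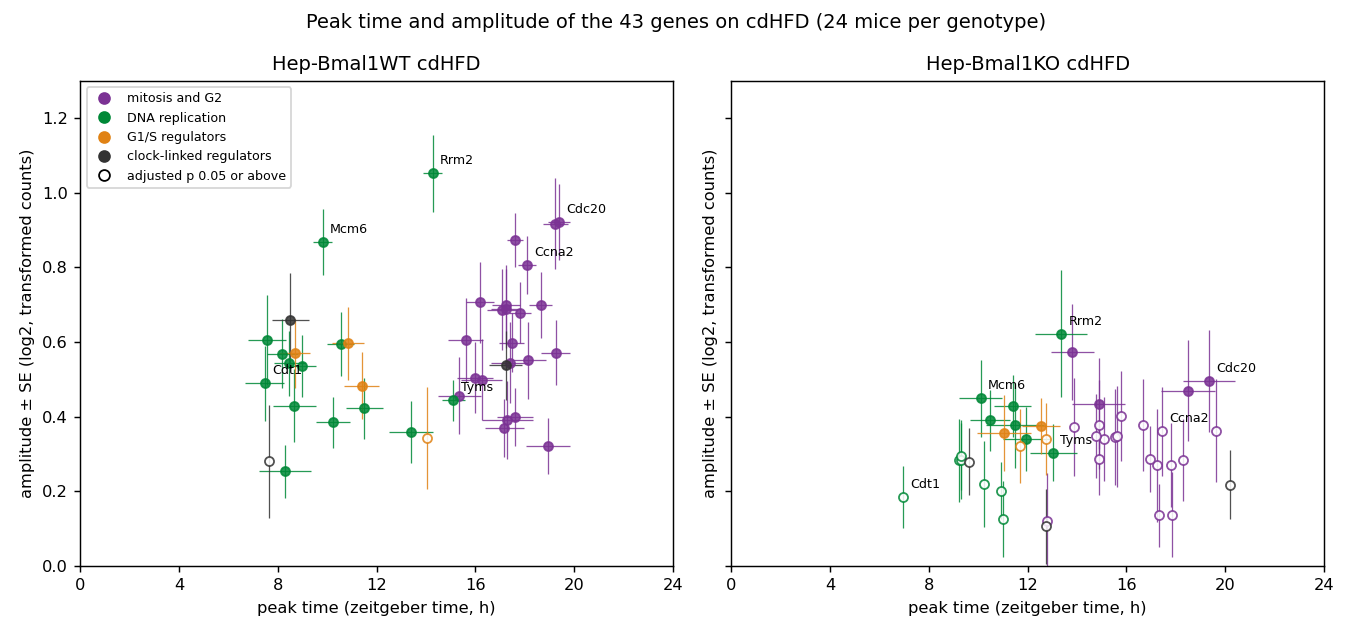
Amplitude ± SE (y axis, log2 of transformed counts) against peak time ± SE (x axis, zeitgeber time in h) of the 43 genes on cdHFD in the Hep-Bmal1WT group (left panel) and in the Hep-Bmal1KO group (right panel), with open symbols for genes whose rhythm was not called. In Hep-Bmal1WT mice replication genes lie between 7.46 and 15.1 h and mitosis genes between 15.4 and 19.4 h, and in Hep-Bmal1KO mice amplitudes are smaller and 13 genes are filled.

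Some markers of cell types were rhythmic too, mainly those of cholangiocytes. Of cholangiocyte markers 5 of 5 were rhythmic in Hep-Bmal1WT mice on cdHFD and 0 of 5 in Hep-Bmal1KO mice on cdHFD. In Hep-Bmal1WT mice on cdHFD the same test called 2 of 5 hepatocyte, 2 of 5 endothelial, and 1 of 10 macrophage markers. It called 1 of 8 stellate cell and fibroblast, 1 of 3 erythroid, and 0 of 6 T cell markers there. Of B cell markers it called 0 of 4 and of neutrophil markers 0 of 5, against 14.5% of all genes tested. The part of these cells in the rhythms was not tested. The mice of different ZTs had different ranges of mouse numbers, as had the chow and cdHFD mice within each ZT. Neither time of day nor diet can therefore be told apart from number range, and the labels do not say what the ranges stand for. Among other genes of the pathway, 27 of 42 mitosis genes, led by Pbk (edgeR adjusted p = 1.20e-08), and 27 of 46 replication genes, led by Uhrf1 (edgeR adjusted p = 4.02e-06), were rhythmic in this group.

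In Hep-Bmal1KO mice on cdHFD fewer of these rhythms were called and their amplitudes were smaller, but the change of rhythm itself passed the test for no gene. There 13 of 43 genes were rhythmic, against 3.83% of all genes tested: the mitosis genes Top2a, Cdk1, Ccnb1, and Cdc20, the replication genes Mcm6, Mcm3, Gins2, Mcm5, Rrm1, Tyms, and Rrm2, and the G1/S genes Ccne1 and E2f1. At an unadjusted p under 0.05 the number was 33 of 43, against 19.3% of all genes. DESeq2 called 23, beside 1045 calls over all genes. Without the discordant library edgeR called 9, of which 8 were among the 13, with Pcna the addition, and with each replicate number left out in turn it called 4 to 8. The test of a changed rhythm between genotypes called 0 of 43 genes by edgeR and 0 by DESeq2 (0.424% of all genes by edgeR). At an unadjusted p under 0.05 it found 13 of 43, against 6.21% of all genes, with the smallest values for Mcm4, Nusap1, and Mcm6.

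The fitted amplitude was lower in Hep-Bmal1KO than in Hep-Bmal1WT mice on cdHFD for 42 of 43 genes, all but Gins2, and for 61.1% of all genes. The difference had an unadjusted p under 0.05 for 15 of 43 genes, against 2.59% of all genes, and an adjusted p under 0.05 for none. The median amplitude was 0.60 in Hep-Bmal1WT and 0.35 in Hep-Bmal1KO mice for mitosis genes, and 0.51 and 0.30 for replication genes. Ccna2 differed by -0.45 ± 0.14, Plk1 by -0.41 ± 0.14, and Mcm6 by -0.42 ± 0.14, while Top2a differed by -0.03 ± 0.17 and Mki67 by -0.13 ± 0.16. Without the discordant libraries the amplitude was lower for 43 of 43 genes, against 60.3% of all genes. Of the 43, 23 had an unadjusted p under 0.05, against 2.85% of all genes.

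The order of the classes was also seen in Hep-Bmal1KO mice among the genes called rhythmic. The 7 rhythmic replication genes had a mean peak of 11.7 h and the 4 rhythmic mitosis genes of 16.6 h, so the gap was 4.95 h, against 7.48 h in Hep-Bmal1WT mice. Since different genes enter the 2 gaps, they are set side by side without a test. The 7 included Gins2, Rrm2, and Tyms, the last to peak in Hep-Bmal1WT mice, and not Cdt1 or Cdc6, the first. The last of the 7, Rrm2 at 13.4 ± 1.04 h, and the first of the 4, Top2a at 13.8 ± 0.86 h, did not differ beyond their errors, and Ccnb1 (18.5 ± 1.09 h) and Cdc20 (19.3 ± 1.05 h) were last, as in Hep-Bmal1WT mice. Rrm2 in Hep-Bmal1KO mice at ZT14 was at 25.4, 37, 41.4, and 143 CPM, and the highest of these was a discordant library. The other 3 lay below every Hep-Bmal1WT mouse of that time (61.6–79.3 CPM).

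**Figure D4:**
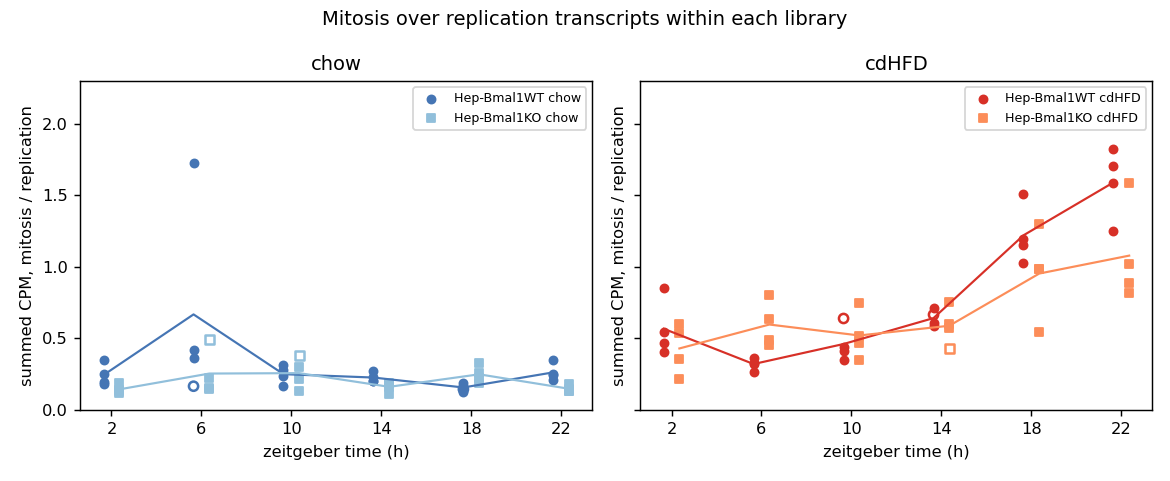
Summed CPM of the 22 mitosis genes divided by that of the 14 replication genes in each library (y axis) against zeitgeber time (x axis, h) on chow (left) and cdHFD (right), with a point per mouse, lines through group means, and open symbols for the discordant libraries. In Hep-Bmal1WT mice on cdHFD the ratio was 0.264–0.363 at ZT6 and 1.25–1.82 at ZT22, while in Hep-Bmal1KO mice it was 0.455–0.806 and 0.818–1.58.

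The ratio of summed mitosis to summed replication transcripts within a library, which does not depend on the library's total, followed the same course. In Hep-Bmal1WT mice on cdHFD it was 0.264–0.363 at ZT6, 1.03–1.51 at ZT18, and 1.25–1.82 at ZT22. In Hep-Bmal1KO mice it was 0.455–0.806 at ZT6, above all 4 Hep-Bmal1WT mice, and 0.818–1.58 at ZT22, where the genotypes overlapped. On chow its median was 0.233 in Hep-Bmal1WT and 0.183 in Hep-Bmal1KO mice.

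On chow fewer of these genes were called. In Hep-Bmal1WT mice 8 of 43 genes were rhythmic, a share near the 19.1% of all genes tested: the 3 clock-linked genes, Rrm2, Ccne1, E2f8, Cdc20, and Ccnb1. Without the male of ZT6 with the high mitosis sum 6 remained, and Cdc20 and Ccnb1 were no longer called. The transformed scale shrinks changes at these low counts: the median amplitude of the 22 mitosis genes in Hep-Bmal1WT mice was 0.24 on chow and 0.60 on cdHFD on that scale, and 0.80 and 0.95 on the log2 scale of the edgeR fit to counts. In Hep-Bmal1KO mice on chow edgeR called 0 of 43, against 4.33% of all genes. At an unadjusted p under 0.05 it found 7 of 43, against 20.3% of all genes, and Cdkn1a was called by DESeq2, and by edgeR without the discordant libraries. Rrm2 was rhythmic on both diets in Hep-Bmal1WT mice and peaked 4.43 ± 0.87 h earlier on cdHFD, at 14.3 h against 18.7 ± 0.83 h on chow. Arntl peaked 4.66 ± 0.50 h earlier on cdHFD in Hep-Bmal1WT mice. The other genes rhythmic on both diets there did not all move alike. Ccne1 peaked at 12.4 h on chow and 8.68 h on cdHFD, and Cdkn1a at 22.9 and 17.2 h. Ccnd1 peaked at 8.73 and 8.50 h, and Cdc20 at 5.53 and 19.4 h. Ccnb1 peaked at 5.36 h on chow and was among the last mitosis genes on cdHFD. A link between the shifts of Rrm2 and Arntl was not tested.

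The rhythm changed with the diet for 29 of 43 genes in Hep-Bmal1WT mice, against 6.21% of all genes. They were 18 mitosis genes, 8 replication genes, E2f8, Wee1, and Cdkn1a, led by Cdc20 (edgeR adjusted p = 1.07e-05), Ccnb1 (4.03e-05), and Rrm2 (0.000138). Without the male of ZT6 with the high mitosis sum the number was 19, all among the 29, of which 8 were mitosis genes, and Top2a (edgeR adjusted p = 0.156) and Mki67 (0.259) were not called. With a replicate number left out it was 12 to 26, the lowest without replicate 1. In Hep-Bmal1KO mice the rhythm of 1 of 43 genes changed, Mcm3 (edgeR adjusted p = 0.0490), against 0.907% of all genes, and none was called without the discordant libraries. At an unadjusted p under 0.05 14.1% of all genes were found in that comparison. Whether the diet changed rhythms differently in the 2 genotypes was not tested.

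The 3 clock-linked genes were each followed by time of day. Wee1 (chr7:110122059-110143299), which holds CDK1 back from mitosis, was at 2.10, 2.97, 3.0, and 3.03 CPM at ZT2 and at 11.3, 12.1, 15.8, and 19.8 CPM at ZT14 in Hep-Bmal1WT mice on chow. It had an amplitude of 0.76 ± 0.09 on the log2 scale and a peak at 14.2 ± 0.44 h (edgeR adjusted p = 1.60e-05). In Hep-Bmal1KO mice on chow it was at 7.65, 7.89, 7.94, and 8.99 CPM at ZT14, below every Hep-Bmal1WT mouse of that time, and its amplitude was 0.11 ± 0.11. The rhythm of Wee1 differed between genotypes on chow (edgeR adjusted p = 0.0313), while its mean level did not pass the test (-0.05 ± 0.16). Wee1 and Cdkn1a were the 2 of 43 genes whose rhythm differed between genotypes on chow, against 0.392% of all genes, and the same 2 were called by DESeq2 and without the discordant libraries. Neither was called with any of the 4 replicate numbers left out, where the edgeR adjusted p was 0.0834 to 0.523 for Wee1 and 0.0540 to 0.485 for Cdkn1a, nor with a filter of 10 counts in 24 libraries.

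With cdHFD the daily course of Wee1 changed in Hep-Bmal1WT mice (edgeR adjusted p = 0.000619). It was highest at ZT6, at 20.9–27.2 CPM, against 8.97–14.8 CPM in Hep-Bmal1KO mice at the same time. Wee1 was lower in Hep-Bmal1KO than in Hep-Bmal1WT mice on cdHFD by a log2 difference of -0.42 ± 0.13 (edgeR adjusted p = 0.0289). This call was lost without replicate numbers 1, 2, or 4, with estimates of -0.57 to -0.29 over the 4 replicate numbers left out, and in either sex alone. At ZT6 on cdHFD the mitosis sum was 54–81.5 CPM in Hep-Bmal1WT and 98.4–153 CPM in Hep-Bmal1KO mice. The genotypes did not overlap in Wee1 or in this sum at that time, which was picked after the values were seen. No test was given to it. In Hep-Bmal1WT mice the median of the sum was 80.7 CPM at ZT6 and 72.6 CPM at ZT2, so ZT6 was not its low by the median.

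**Figure D5:**
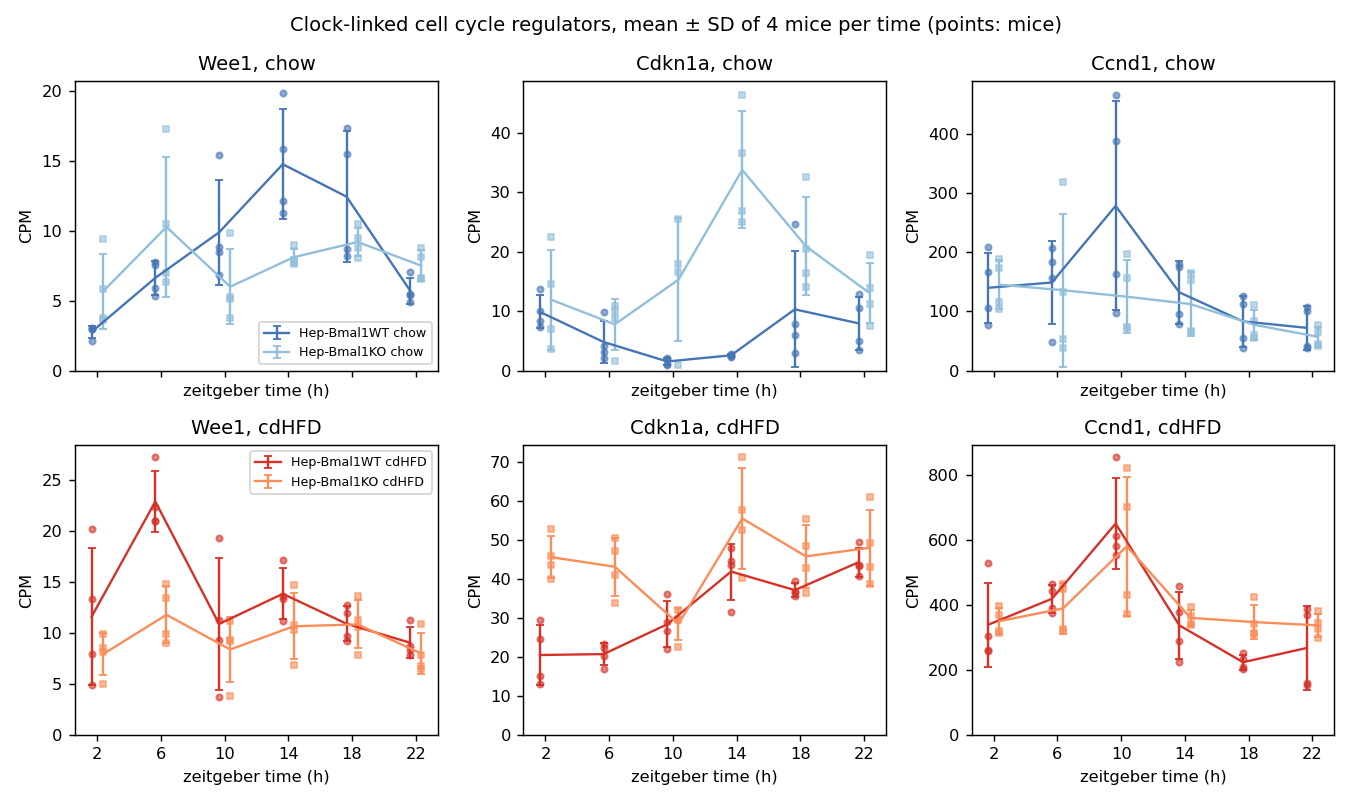
CPM (y axis) of Wee1, Cdkn1a, and Ccnd1 against zeitgeber time (x axis, h) on chow (top) and cdHFD (bottom), with a point per mouse and mean ± SD of 4 mice per time. At ZT14 on chow Wee1 stood at 11.3–19.8 CPM in Hep-Bmal1WT and 7.65–8.99 CPM in Hep-Bmal1KO mice, and Cdkn1a at 2.38–2.81 and 25–46.4 CPM.

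Cdkn1a (chr17:29090979-29100722) was the gene of the 43 that differed most between genotypes on chow. At ZT14 it was at 2.38, 2.53, 2.61, and 2.81 CPM in Hep-Bmal1WT and at 25, 26.9, 36.6, and 46.4 CPM in Hep-Bmal1KO mice, with no overlap, while at ZT2 the genotypes overlapped (7.34–13.7 and 3.61–22.5 CPM). Its mean level was higher in Hep-Bmal1KO mice by a log2 difference of 1.45 ± 0.30 on chow (edgeR adjusted p = 0.000516) and 0.50 ± 0.10 on cdHFD (edgeR adjusted p = 0.000297). Both calls held with each replicate number left out, while that on chow was lost in females alone (edgeR adjusted p = 0.111). The rhythm differed between genotypes on chow (edgeR adjusted p = 0.0315), a call that was lost with each replicate number left out as given above, with a peak at 22.9 ± 0.81 h in Hep-Bmal1WT mice. On cdHFD the peak in Hep-Bmal1WT mice was at 17.2 ± 0.66 h, and the change with diet passed the test (edgeR adjusted p = 0.00574).

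Ccnd1 (chr7:144929931-144939831) kept its hour. It peaked at 8.73 ± 1.17 h on chow and 8.50 ± 0.74 h on cdHFD in Hep-Bmal1WT mice, and on cdHFD it was at 555, 580, 612, and 857 CPM at ZT10 and at 202, 208, 233, and 252 CPM at ZT18. In Hep-Bmal1KO mice on cdHFD it was at 372–821 CPM at ZT10 and 310–424 CPM at ZT18, which overlap, and its rhythm was not called (edgeR adjusted p = 0.0632). Its level did not pass the test between genotypes (-0.32 ± 0.21 on chow and 0.14 ± 0.10 on cdHFD on the log2 scale).

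Averaged over the day, genotype moved few of the genes. On chow 7 of 43 were higher in Hep-Bmal1KO mice, against 7.01% of all genes tested, and 1 was lower, against 5.6%. Mcm6 was at 4.07, 8.91, 10.3, and 10.8 CPM in Hep-Bmal1WT and at 22.5, 25.3, 32.8, and 45.3 CPM in Hep-Bmal1KO mice at ZT2, and it was higher over all times by 0.95 ± 0.19 (edgeR adjusted p = 0.000230). The other genes higher in Hep-Bmal1KO mice were Cdkn1a, Mcm2 (0.57 ± 0.15), Mcm4 (0.55 ± 0.17), Mcm7 (0.32 ± 0.11), Ccne2 (0.84 ± 0.27), and E2f1 (0.44 ± 0.15). Rrm2 was lower, by -0.75 ± 0.17 (edgeR adjusted p = 0.00182), with a median of 9.62 CPM in Hep-Bmal1WT and 5.61 CPM in Hep-Bmal1KO mice. The same 8 genes were called by DESeq2. With 1 replicate number left out 4 to 7 genes were called. Mcm6, Cdkn1a, and Rrm2 were called in all 4 of these runs, Mcm2 in 3, Mcm4 in 2, Ccne2 and E2f1 in 1 each, and Mcm7 in none. Males alone gave 5 calls and females alone 2. Of the 6 MCM subunits 4 were thus called with all mice, and of the other 2 Mcm5 had 0.57 ± 0.23 (edgeR adjusted p = 0.0895) and Mcm3 0.35 ± 0.21 (edgeR adjusted p = 0.332), of which Mcm5 was called without the discordant libraries (0.65 ± 0.23).

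None of the 22 mitosis genes was called between genotypes on chow by edgeR or DESeq2. Of these, 2 had an unadjusted p under 0.05, Ccnb1 (-0.81 ± 0.39) and the kinetochore gene Cenpf (-1.10 ± 0.50). Over the 43 genes the number was 14, against 24% of all genes. The highest Hep-Bmal1WT library on chow was at 17.2 CPM for Ccnb1 (median 1.14) and 5.26 CPM for Cenpf (median 0.413). With a replicate number or the ZT6 male with the high mitosis sum left out, the Ccnb1 estimate ranged from -0.94 to -0.40. Without the discordant libraries 10 of 43 genes were called on chow, among them Mcm6 at 1.19 ± 0.17 and Cdkn1a at 1.84 ± 0.26. Of cholangiocyte markers 2 of 5 were higher in Hep-Bmal1KO mice on chow (summed 33.2–144 CPM and 60.6–144 CPM), and the hepatocyte marker Alb was lower. The part of these cells was not tested. The order of the libraries in the deposited counts repeats genotype and diet every 12 libraries. If these 12 positions are plate columns, which the labels do not state, each held 1 genotype, 1 diet, and 2 ZTs. Column could then not be told apart from genotype, diet, or pair of ZTs.

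On cdHFD 1 of 43 genes was higher in Hep-Bmal1KO mice, Cdkn1a, and 1 was lower, Wee1, against 4.62% and 5% of all genes tested. At an unadjusted p under 0.05 the number was 4 of 43, against 22% of all genes. DESeq2 added Mcm6 (0.29 ± 0.10 in edgeR), and edgeR without the discordant libraries added Rrm2 (-0.46 ± 0.13). Mki67 and Top2a differed by -0.02 ± 0.12 and -0.05 ± 0.12 between genotypes on cdHFD. Here 3 of 5 cholangiocyte, 6 of 8 stellate cell and fibroblast, 2 of 5 neutrophil, and 3 of 10 macrophage markers were higher in Hep-Bmal1KO mice, with 1 macrophage marker lower.

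The effect of the diet was not shown to differ between genotypes for any of the 43 genes by edgeR, against 3.04% of all genes called. At an unadjusted p under 0.05 the number was 8 of 43, against 16.5% of all genes, and DESeq2 called Cdkn1a. Cdkn1a rose less in Hep-Bmal1KO mice by a log2 difference of -0.93 ± 0.29 (edgeR adjusted p = 0.0588), and Mcm6 by -0.66 ± 0.21 (edgeR adjusted p = 0.0640). Without the discordant libraries 5 genes were called, Mcm6 (-0.97), Cdkn1a (-1.29), Mcm2 (-0.74), Mcm4 (-0.74), and E2f1 (-0.65), each with a smaller rise in Hep-Bmal1KO mice. None of the 22 mitosis genes was among these 5. Calls over all genes went from 473 to 921 in that run. Since those libraries were picked by expression that goes against their genotype label, leaving them out by itself favours more such calls.

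Sex moved 2 of 43 genes, against 17.2% of all genes tested. Ccnd1 was higher in females by a log2 difference of 0.70 ± 0.09 (edgeR adjusted p = 4.70e-09). In Hep-Bmal1WT mice on chow its lowest, median, and highest level was 38.2, 78.2, and 162 CPM in 12 males and 101, 177, and 466 CPM in 12 females, so the sexes overlapped. Ccne1 was lower in females by -0.49 ± 0.17 (edgeR adjusted p = 0.0316), but it was not called with any replicate number left out (edgeR adjusted p = 0.0536 to 0.258). Its mean was 3.44 CPM in males and 1.15 CPM in females in Hep-Bmal1WT mice on chow, and 3.87 and 3.73 CPM on cdHFD.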

How the data were processed

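The authors counted BRB-seq reads per gene and deposited the raw counts as 1 table, without normalization. Per the labels, the processing notes name mm10, STAR, HTSeq, featureCounts, and DESeq2, and whether reads of the same molecule were collapsed is not given in the sources used here, nor is the treatment of reads shared with near-identical copies (Ccnb1, for example, has processed copies in mouse), so levels of such genes are uncertain to that extent. Entries for reads on no gene (22.6–39.9% of a library) were left out. Genotype, diet, ZT, and sex came from the labels. Gene positions are those of the RefSeq annotation of GRCm38.p6, the patch release of the same build.

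A gene was kept if its counts summed to 100 or more over the 96 libraries. Tests used edgeR 4.0.16 (quasi-likelihood, TMM) in R 4.3.3, with Benjamini-Hochberg adjustment over all 15548 genes. Genotype was tested within each diet and diet within each genotype with ZT as a factor, genotype by diet and sex over all libraries, and rhythm by cosine and sine terms with a period of 24 h. Amplitude and peak were fitted to values from the variance-stabilizing transformation of DESeq2 1.42.0, with delta-method standard errors. CPM used TMM sizes. The edgeR tests of genotype on cdHFD, of rhythm in a group, and of a changed rhythm were run on simulated counts with known changes. So was the fit of amplitude and peak within a group, while the other fits were not. The genes picked for naming were 14 fixed members and the calls of smallest p in each class. Not all of them are given in each comparison. The alternatives are given in the section on processing. To find discordant libraries, each was placed on a line from the Hep-Bmal1WT median (0) to the Hep-Bmal1KO median (1) at its diet and ZT, itself left out, and it was called discordant if it lay past 0.5 on the wrong side for both gene sets. The members, classes, and lists were chosen with earlier results of these data known. The libraries are 1 per mouse, and p-values measure the spread between mice, with intervals that do not cover duplicated reads. The sex label matched sex-linked genes in 95 of 96 libraries. Within a group no 2 libraries correlated above 0.980.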

Additional observations from a re-analysis of the deposited data

Results flagged for a closer look

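In each group of 4 mice at 1 ZT, the summed mitosis genes, the summed replication genes, and the 3 clock-linked genes were searched for a mouse far from the other 3. Of 120 such groups of values 9 held one, where chance alone gives about 1 in 20. For the summed mitosis genes these were male replicate 1 of Hep-Bmal1WT chow at ZT6 (156 CPM, others 22.6–33), female replicate 4 of Hep-Bmal1WT cdHFD at ZT6 (54 CPM, others 80.6–81.5), female replicate 4 of Hep-Bmal1KO chow at ZT6 (46 CPM, others 17–20.5), and female replicate 4 of Hep-Bmal1KO cdHFD at ZT22 (243 CPM, others 129–143). For the summed replication genes they were female replicate 4 of Hep-Bmal1WT chow at ZT10 (59.4 CPM, others 79–82.2), male replicate 1 of Hep-Bmal1WT chow at ZT18 (63.8 CPM, others 89.3–91.9), female replicate 3 of Hep-Bmal1KO chow at ZT10 (59.7 CPM, others 113–118), and male replicate 1 of Hep-Bmal1KO cdHFD at ZT14 (490 CPM, others 195–234). Wee1 in female replicate 4 of Hep-Bmal1WT chow at ZT2 was at 2.10 CPM (others 2.97–3.03). Of these mice, the females of Hep-Bmal1KO chow at ZT6 and ZT10 and the male of Hep-Bmal1KO cdHFD at ZT14 were discordant libraries.

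The edgeR test of a changed rhythm passed between genotypes on chow for Wee1 (adjusted p = 0.0313) and Cdkn1a (0.0315). Between diets in Hep-Bmal1WT mice it passed for the mitosis genes Cdc20 (adjusted p = 1.07e-05), Ccnb1 (4.03e-05), Plk1 (0.00014), Ccna2 (0.000191), Nusap1 (0.000245), Ccnb2 (0.000306), Aurka (0.000369), Kif20a (0.00105), Tpx2 (0.00156), Prc1 (0.00205), Aurkb (0.00266), Birc5 (0.0065), Cenpe (0.00732), Mki67 (0.0104), Cenpf (0.0135), Cdk1 (0.0266), Anln (0.0404), and Top2a (0.0429). It passed for the replication genes Rrm2 (adjusted p = 0.000138), Tyms (0.000303), Mcm5 (0.00149), Rrm1 (0.00436), Cdc6 (0.00692), Mcm6 (0.0118), Mcm2 (0.0201), and Mcm4 (0.0259), and for Wee1 (0.000619), Cdkn1a (0.00574), and E2f8 (0.0269). Between diets in Hep-Bmal1KO mice it passed for Mcm3 (adjusted p = 0.0490).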

How the results depend on the processing

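No paired analysis was possible because the replicate numbers were given in accession order and pair no mice. The counts of genes higher on cdHFD (43 and 41 of 43) and rhythmic in Hep-Bmal1WT mice on cdHFD (41) held within 1.5 times under every alternative run, except that females alone gave 16 of the latter. Other counts of genes moved as follows, and the cause was not tested. DESeq2 called 1 gene for genotype by diet (645), 1 rhythm in Hep-Bmal1KO chow (1149), and 23 in Hep-Bmal1KO cdHFD (1045). It called 4 rhythms changed by diet in Hep-Bmal1KO mice (344). A filter of 10 counts in 24 libraries called 0 rhythms changed by genotype on chow (0). No filter called 1 gene for genotype by diet (407), 5 for sex (2542), and 1 rhythm in Hep-Bmal1KO chow (639). Sex as a covariate called 1 rhythm in Hep-Bmal1KO chow (993) and 2 changed by diet in Hep-Bmal1KO mice (224). Males alone called 5 genes for genotype on chow (1759), 1 on cdHFD (802), and 3 for genotype by diet (469). They gave 4 rhythms in Hep-Bmal1KO cdHFD (210), and 1 (29) and 2 (53) rhythms changed by genotype on chow and cdHFD. Females alone called 2 genes for genotype on chow (578). They gave 4 (1267), 1 (137), and 5 (130) rhythms in Hep-Bmal1WT chow, Hep-Bmal1KO chow, and Hep-Bmal1KO cdHFD. In them 0 rhythms changed by genotype on chow (39), and 4 (233) and 0 (44) changed by diet in Hep-Bmal1WT and Hep-Bmal1KO mice. Without the discordant libraries 5 genes were called for genotype by diet (921), 1 rhythm in Hep-Bmal1KO chow (605), and 0 rhythms changed by diet in Hep-Bmal1KO mice (183). An unadjusted p under 0.01 called 1 (1397) and 25 (1316) rhythms in Hep-Bmal1KO mice on chow and cdHFD. It called 4 changed by genotype on cdHFD (279), and 8 changed by diet in Hep-Bmal1KO mice (829). Without male replicate 1 of Hep-Bmal1WT chow at ZT6 19 rhythms changed by diet in Hep-Bmal1WT mice (903). On log2 CPM the median amplitude of mitosis genes was 0.48, 0.32, 0.91, and 0.50 in Hep-Bmal1WT chow, Hep-Bmal1KO chow, Hep-Bmal1WT cdHFD, and Hep-Bmal1KO cdHFD, and that of replication genes 0.66 in Hep-Bmal1WT cdHFD.

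With each replicate number left out in turn, which takes 1 mouse from every group and ZT, or with the male of ZT6 or the library against its sex label left out, the calls ranged from 4 to 8 for genotype on chow, 1 to 2 on cdHFD, 0 to 1 for genotype by diet, 1 to 2 for sex, 4 to 8 for rhythms in Hep-Bmal1WT chow, 4 to 9 in Hep-Bmal1KO cdHFD, 34 to 39 in Hep-Bmal1WT cdHFD, 12 to 26 for rhythms changed by diet in Hep-Bmal1WT and 0 to 0 in Hep-Bmal1KO mice, and 0 to 2 for rhythms changed by genotype on chow.

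Estimates that changed sign were those of genes that were not called. For sex, Top2a had a log2 difference of 0.0048 with DESeq2 size factors, 0.013 with DESeq2, 0.029 without the discordant libraries, and 0.020 without the male of ZT6; Ccnb1 had 0.00044 with DESeq2 and 0.071 without that male, Mcm2 0.043 and Mcm6 0.038 without the discordant libraries, Mki67 0.014 without that male, and Wee1 -0.0018 without the library against its sex label. In males alone Mki67 had 0.059 and Pcna -0.072 for genotype on chow, Ccnb1 0.029, Mcm2 -0.025, and Mcm5 -0.049 on cdHFD, and Cdk1 0.27 for genotype by diet. In females alone Wee1 had 0.18, Cdk1 0.28, and Ccne1 0.29 for genotype on chow, Mki67 0.014 and Ccne1 -0.095 on cdHFD, and Ccne1 -0.40 for genotype by diet. Without the discordant libraries Mcm2 had -0.028 for genotype on cdHFD and Pcna -0.029 for genotype by diet. With all 96 libraries in 1 fit Wee1 had 0.0088 and Cdk1 0.0051 for genotype on chow and Ccnb1 2.03e-05 on cdHFD. Without the male of ZT6 Mki67 had 0.073 and Cdk1 0.12 for genotype on chow and Mki67 -0.14 for genotype by diet. With a replicate number or 1 of these 2 mice left out the estimates ranged, for genotype on chow, from -0.29 to 0.24 (Cdk1), -0.18 to 0.060 (Wee1), -0.44 to 0.073 (Mki67), and -0.023 to 0.13 (Pcna). For genotype on cdHFD they ranged from -0.12 to 0.094 (Ccnb1), -0.12 to 0.10 (Mki67), -0.11 to 0.0073 (Top2a), and -0.10 to 0.037 (E2f1). For genotype by diet they ranged from -0.14 to 0.46 (Mki67), -0.44 to 0.16 (Cdk1), and -0.021 to 0.13 (Pcna), and for sex from -0.16 to 0.040 (Mki67), -0.12 to 0.10 (Top2a), -0.21 to 0.096 (Ccnb1), -0.019 to 0.045 (Wee1), and -0.068 to 0.15 (Mcm5).

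Depth limited the mitosis genes on chow most, 20 of 22 of which had no count in at least 1 library there.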
